A study of Mus musculus with 14 samples.

Results

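A set of 10 genes known from the stomach, some of them also expressed elsewhere, was followed through RNA-seq of mouse lung. They were the proteases Cym, Pgc and Ctse, the gastrokines Gkn1, Gkn2 and Gkn3, and Anxa10, Vsig1, Capn8 and Psca. The last 4 mark gastric surface (pit) and gland cells. The members were matched by gene name, with no filter on level. All 10 had a row among the 23793 loci listed for alveolar type 1 (AT1) cells and lung, and 9 among the 32609 loci listed for alveolar type 2 (AT2) cells, where no row was named Pgc. Of these, 4 of 10 in AT1 cells and 4 of 9 in AT2 cells reached 1 FPKM in at least 3 of 6 libraries, and all 10 reached it in the mutant lung.

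The study compared mice mutant for Nkx2-1, the homeobox transcription factor gene of lung and thyroid epithelium, with controls, to ask how it directs the alveolar cells. AT1 cells, the thin cells of gas exchange, were sorted by flow cytometry at postnatal day (P) 5 from a cross labelled Nkx2-1;Aqp5 and gave 3 control and 3 mutant libraries, A to C. The same cross at P14 gave 1 control and 1 mutant library of whole lung. AT2 cells, which secrete surfactant, came from a cross labelled Nkx2-1;Sftpc and gave 3 control and 3 mutant libraries, of which A and B were taken at P8 and C at P9 in each arm. Aqp5 and Sftpc are genes of AT1 and AT2 cells respectively. The alleles, the driver of recombination, the strain, the genotype of the controls and the way AT2 cells were isolated are nowhere stated in the sources used here. Nothing in them says whether libraries A to C came from separate animals, so p-values measure the spread between these libraries, which may be technical.

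The stomach lining is made of glands whose surface pit cells secrete mucus, gastrokines and trefoil factors, whose neck cells make other mucins, and whose chief cells store pepsinogens, the inactive forms of acid-activated aspartic proteases. Lung and stomach both arise from the foregut. In mouse lung tumours, loss of Nkx2-1 is known to be accompanied by expression of gastric genes, for which factors such as HNF4A and FOXA1 are needed.

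Levels are given in FPKM, in which fragments are counted per kilobase of transcript and scaled to library size, a unit that takes account of transcript length. Tests were made on log2(FPKM + 1) with limma, two-sided, over all loci of a comparison at once, and a gene was called where its Benjamini-Hochberg adjusted p was under 0.05. AT1 and AT2 values lie in tables that the authors normalized separately, so a level in one cell type beside that in the other is descriptive. Lung values lie in a block of their own, so a level in lung beside that in sorted cells is descriptive as well. Summed FPKM was 458291 to 614523 in AT1, 536862 to 983397 in AT2 and 625431 to 715760 in lung libraries, and 11102 to 12561 loci reached 1 FPKM in each AT1 or AT2 library. Mitochondrial transcripts took 14.0 to 33.7% of summed FPKM in AT2 controls and 8.85 to 12.8% in AT2 mutants. Since the files give no read counts, depth in reads is unknown and no counting interval or detection limit can be given.

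In the GRCm38 mouse assembly, the members lie at separate places apart from the gastrokines. Gkn1 (chromosome 6: 87345650 to 87350942, minus strand), Gkn2 (87373357 to 87379497, plus strand) and Gkn3 (87383256 to 87388935, minus strand) are neighbours, with 22414 and 3758 bases between them. Cym is on chromosome 3 (107211293 to 107221732, minus strand), Pgc on 17 (47726842 to 47734482, plus strand), Ctse on 1 (131638306 to 131675505, plus strand) and Anxa10 on 8 (62057042 to 62123150, minus strand). Vsig1 is on X (140907608 to 140939472, plus strand), Capn8 on 1 (182565007 to 182632352, plus strand) and Psca on 15 (74714839 to 74717069, plus strand). No annotated gene overlaps any of them.

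Promoters from RefSeq (GRCm38.p6, 250 bases before to 50 after the start) were found for 8 members, and not for Ctse and Psca. In 4 of the 8 the letters TATAAA, the usual form of a core promoter element, had their first base between positions -35 and -25 from the annotated start on the gene's strand, against 576 of all 32851 promoters (1.75%). This window was set after the matches were seen, so the contrast is no test. Anywhere in the promoter and on either strand, TATAAA was in the same 4 members and in 13.6% of all promoters. The stretches from 60 bases before to 20 after the start of these 4 genes are shown because the genes share this feature although their levels below differ widely, and the capitals mark the element.
Cym, chr3:107221713-107221792, minus strand: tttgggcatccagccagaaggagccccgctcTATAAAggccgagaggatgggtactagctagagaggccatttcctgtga
Pgc, chr17:47726782-47726861, plus strand: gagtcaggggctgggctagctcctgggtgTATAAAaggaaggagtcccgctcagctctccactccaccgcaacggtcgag
Gkn2, chr6:87373305-87373384, plus strand: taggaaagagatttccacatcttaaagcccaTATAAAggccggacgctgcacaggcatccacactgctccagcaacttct
Anxa10, chr8:62123174-62123253, minus strand: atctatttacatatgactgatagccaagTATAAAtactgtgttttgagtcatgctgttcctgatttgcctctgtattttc
The first base of the element stood at position -29 in Cym and Gkn2, -31 in Pgc and -32 in Anxa10. These positions are from the RefSeq start, which for Gkn2 and Anxa10 is not the gene start given above. The Anxa10 stretch lies wholly before that gene start (62123150), so the count of 4 depends on the annotation. Further motifs were searched on both strands of the whole window. CAAGTG, the core bound by NKX2-1, which also fits the E-box CANNTG, was in 1 member (Gkn3) and in 13.6% of all promoters. AGATAA, recognised by zinc-finger factors of the gut such as GATA6, was in all 3 gastrokines and in 11.2% of promoters, GTTAAT, an HNF1 half-site, was in Vsig1 and in 7.10%, and TGTTTAC, a FOXA site, was in no member and in 3.65%. A match is a run of letters and not a measured binding site.

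The targeted gene was lower in every mutant library. Nkx2-1 measured 239.8 to 281 FPKM in AT1 controls and 22.8, 55.8 and 68.2 in mutants A, B and C, which is 8.74, 21.4 and 26.1% of the control mean (log2 change -2.53 ± 0.36 SE, n = 3 per arm, limma adjusted p = 0.00639). The AT2 mutants held 25.1, 19.9 and 24.8% of the control mean (log2 -2.08 ± 0.16, adjusted p = 7.31e-05), and in lung the mutant held 51.5% (101 against 52.1 FPKM). Which part of the gene was removed is nowhere stated in the sources used here.

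**Figure D1:**
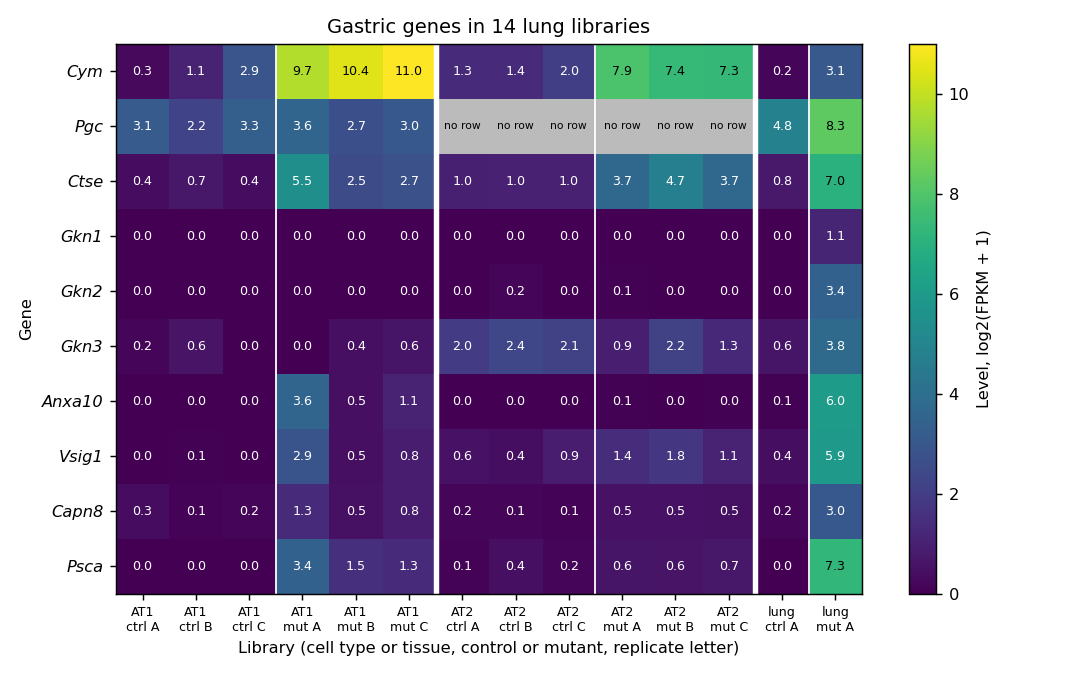
Level of each gene (rows) in each of the 14 libraries (columns), as log2(FPKM + 1), with the value printed in the cell and grey where the AT2 table had no row of that name. Cym is bright in all 6 mutant AT1 and AT2 libraries, whereas the other genes are brightest in the single mutant lung library.

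Cym, which encodes chymosin, the milk-clotting protease known from the calf stomach, had the highest level of the 10 in mutant AT1 and AT2 cells and the largest change there. AT1 controls A, B and C held 0.198, 1.14 and 6.42 FPKM of it, and the AT1 mutants 847, 1393 and 1998. The arms were far apart, and library C was the highest in both. The rise was 8.96 ± 0.62 on the log2(FPKM + 1) scale (SE, n = 3 per arm, limma adjusted p = 0.00075), the 3rd largest increase among 12612 loci tested. At a mean of 1413 ± 576 FPKM (SD), Cym was the 29th most abundant of the 23793 loci in mutant AT1 cells.

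AT2 controls held 1.47, 1.55 and 3.08 FPKM of Cym, and the AT2 mutants 233, 164 and 160.0. Again the arms did not overlap, and here A was the highest mutant. The rise of 5.96 ± 0.23 (limma adjusted p = 7.22e-06) was the 2nd largest of 11610 loci. In whole lung the control held 0.143 FPKM and the mutant 7.34. As listed, the mean of the mutant AT1 libraries was 192 times the mutant lung value, a ratio across separate blocks that is descriptive only. In order of mean level, mutant AT1 cells came before mutant AT2 cells, and these before mutant lung. AT1 and AT2 controls, at 2.59 ± 3.36 and 2.03 ± 0.909 FPKM (SD), did not differ beyond their spread.

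The rise of Cym was smaller in AT2 than in AT1 cells, with an AT2 change minus AT1 change of -3.0 ± 0.76 on the log2 scale (SE, limma interaction over 12 libraries, adjusted p = 0.0334). It was the only one of the 5 members tested whose change was called different between cell types, where 4.28% of 10336 loci were called lower and 4.02% higher. The call was lost with no filter on low values (adjusted p = 0.0642), with a pseudocount of 0.1 (0.0891) and when any of AT1 control B, AT1 mutants B or C, or any AT2 library was left out (0.0529 to 0.0808, log2 -2.71 to -3.18). It held with the letter as a replicate block (adjusted p = 0.00849), and also with the block and no filter. With no filter and 1 library left out, the call held only without AT1 control C. The cells also differed in age and in cross, which cannot be told apart from cell type.

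**Figure D2:**
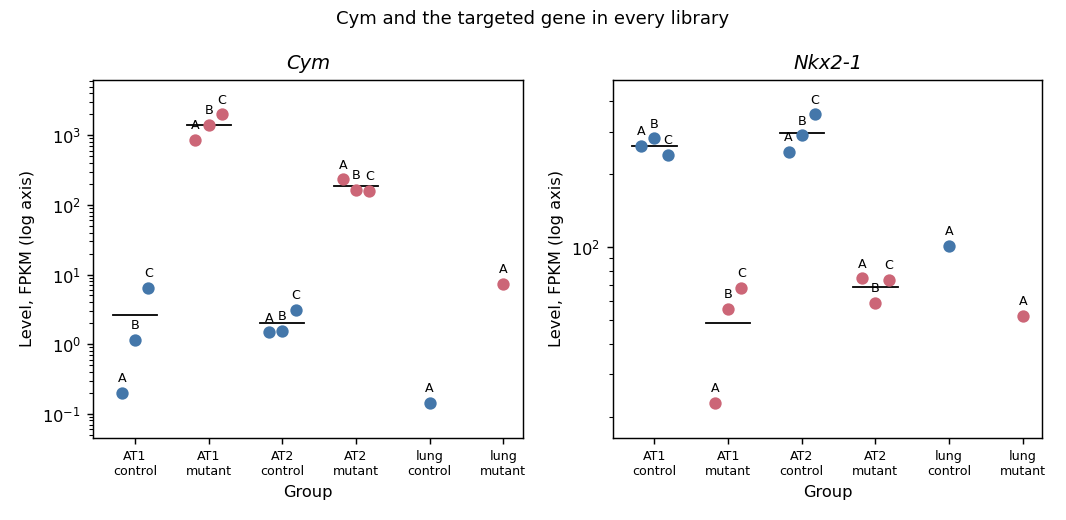
Cym (left) and Nkx2-1 (right) in every library, in FPKM on a log axis, with blue points for controls, red points for mutants, the replicate letter above each point and a bar at the mean of groups of 3. Cym is 847 to 1998 FPKM in mutant AT1 cells and 160.0 to 233 in mutant AT2 cells, above every control, and Nkx2-1 is lowest in AT1 mutant A, where Cym is the lowest of the AT1 mutants.

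The other proteases moved differently. Ctse, cathepsin E, is an intracellular aspartic protease of gastric surface cells and some immune cells. Its level was 0.285, 0.637 and 0.288 FPKM in the AT1 controls, against 43.1, 4.72 and 5.61 in AT1 mutants A, B and C. All mutants stood above all controls, with A well above B and C. In AT2 cells Ctse rose from 0.932, 1.01 and 1.02 FPKM to 12, 25.7 and 11.8, with B the highest. The change was 3.09 ± 0.70 in AT1 (limma adjusted p = 0.0238) and 3.04 ± 0.27 in AT2 cells (adjusted p = 0.000133), and the difference between them was -0.04 ± 0.86 (adjusted p = 0.981). Control lung held 0.699 FPKM of Ctse and mutant lung 129.

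Pgc encodes pepsinogen C, the zymogen of chief cells that is also made by AT2 cells of human lung. AT1 controls held 7.80, 3.66 and 9.12 FPKM of it, and AT1 mutants 11, 5.40 and 7.24. The arms overlapped, and the change of 0.20 ± 0.34 did not pass the test (limma adjusted p = 0.694). Control lung held 27.2 FPKM and mutant lung 304, the highest level of the 10 genes in that library. Pgc thus had the highest control level of the members in AT1 cells and lung.

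The gastrokines are small secreted BRICHOS-domain proteins of gastric surface and neck cells, and none was called in AT1 or AT2 cells. Gkn1 was listed at 0 in all 12 of those libraries, and Gkn2 at 0 in all but AT2 control B (0.115 FPKM) and AT2 mutant A (0.0611). Gkn3 was present in AT2 cells, where the controls held 2.87, 4.13 and 3.44 FPKM and mutants A, B and C 0.893, 3.48 and 1.42. The arms overlapped through mutant B. The change of -0.70 ± 0.30 did not pass the test (limma unadjusted p = 0.0524, adjusted p = 0.0858). It did after rescaling to an equal upper quartile (adjusted p = 0.0337) and without mutant B (log2 -1.06, adjusted p = 0.00536), while it was -0.31 after rescaling to equal summed FPKM (adjusted p = 0.337) and -0.44 without mutant A (adjusted p = 0.240). In AT1 cells Gkn3 stayed at or below 0.544 FPKM in every library. The control lung held 0, 0 and 0.551 FPKM of Gkn1, Gkn2 and Gkn3 and the mutant lung 1.20, 9.70 and 13.1.

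Psca, prostate stem cell antigen, is a membrane-anchored Ly6-family protein of gastric and bladder epithelium. It was listed at 0 in all AT1 controls, while mutants A, B and C held 9.53, 1.79 and 1.47 FPKM. The mutants stood clear of the controls, and the change of 2.06 ± 0.50 on the log2(FPKM + 1) scale, which depends on the pseudocount, passed the test (limma adjusted p = 0.0299). The AT2 controls held 0.0636, 0.354 and 0.125 FPKM of Psca and the mutants 0.540, 0.514 and 0.622, again without overlap but below 1 FPKM throughout. In lung it went from a listed 0 to 154 FPKM.

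Anxa10, an annexin of gastric epithelium, was listed at 0 in all AT1 controls, while AT1 mutants A, B and C held 11, 0.375 and 1.09 FPKM. It was at most 0.0457 FPKM in any AT2 library, control or mutant. Vsig1, an immunoglobulin-family junction protein of gastric glands, stood at 0.0300, 0.0370 and 0 FPKM in the AT1 controls and at 6.33, 0.367 and 0.762 in the AT1 mutants. Both genes thus had all AT1 mutants above all controls and mutant A far above the other two. In AT2 cells Vsig1 went from 0.466, 0.325 and 0.814 FPKM to 1.60, 2.38 and 1.08 (log2 0.79 ± 0.22, limma adjusted p = 0.0170). In lung, Anxa10 went from 0.0471 to 64.6 FPKM and Vsig1 from 0.313 to 59.9.

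Capn8 encodes a calpain protease of gastric pit cells. The AT1 controls held 0.274, 0.0924 and 0.121 FPKM of it and the AT1 mutants 1.48, 0.427 and 0.790. The AT2 controls held 0.131, 0.103 and 0.0821 FPKM and the AT2 mutants 0.433, 0.439 and 0.416. All mutants were above all controls in both cell types, mostly below 1 FPKM. In lung Capn8 went from 0.148 to 7.17 FPKM.

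Over AT1 cells, 3 of the 4 members that could be tested rose (Cym, Ctse and Psca) and none fell, beside 11.6% of all loci called higher. Ctse and Psca entered the test through their mutant libraries alone, so this count is not evidence about the 10 genes as a group. With no filter, 8 members were tested and only Cym was called, beside 5.72% of loci (adjusted p = 0.00511 for Cym, 0.0557 for Ctse, 0.0614 for Psca, 0.0822 for Capn8, and 0.202 to 0.754 for the others). Every mutant library was above every control for 6 of 10 members (Cym, Ctse, Anxa10, Vsig1, Capn8 and Psca). Of the 8 members above 0 in any AT1 library this is 6, beside 18% of the loci above 0. In the fit with the replicate letter as a block and no filter, Capn8 was called in addition (log2 0.67, adjusted p = 0.0493). Some calls depended on a single control library: Ctse was lost without control C (adjusted p = 0.0553) and Psca without control B (0.0502) or C (0.0655).

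In AT2 cells 3 of the 4 members tested rose (Cym, Ctse and Vsig1), beside 32.4% of all loci called higher. Here Vsig1 entered through its mutant libraries alone, so it fell below the filter when any 1 of the AT2 mutants was left out and among the P8 libraries alone, and its call was lost without control A (adjusted p = 0.0510). With no filter its call (adjusted p = 0.0408) was lost with the replicate block and when any 1 of controls A and B and mutants A and B was left out. With no filter and all libraries, 5 of 8 members were called higher, beside 15.1% of loci, the additional ones being Capn8 (log2 0.37 ± 0.04, limma adjusted p = 0.00104) and Psca (0.41 ± 0.10, adjusted p = 0.0257). The call of Psca was lost when any library but control B was left out (adjusted p = 0.0608 to 0.0831). Mutants stood above controls without overlap for 5 of 9 members. Of the 8 members above 0 in any AT2 library this is 5, beside 21.4% of loci above 0.

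The AT1 mutants were not alike. Mutant A was the highest for 6 members, at 7.68 times the higher of B and C for Ctse, 10.1 times for Anxa10, 8.30 times for Vsig1, 5.33 times for Psca, 1.88 times for Capn8 and 1.52 times for Pgc, but it was the lowest for Cym, at 0.424 of the higher of B and C, and for Gkn3, listed at 0 against 0.366 and 0.544 FPKM. It also had the lowest Nkx2-1 and the highest Tff1 (23.1 FPKM against 3.06 and 3.78), Tff2 (55.7 against 17.5 and 21.9) and Hnf4a (18.4 against 3.86 and 5.18). Without mutant A and with no filter, Ctse changed by 2.14 (adjusted p = 0.0147) and Psca by 1.39 (adjusted p = 0.00589), while Cym changed by 9.29 with the filter kept (adjusted p = 0.00634). Anxa10 fell from a change of 1.70 ± 0.75 (adjusted p = 0.203) to 0.76 (0.0957), and Vsig1 from 1.35 ± 0.59 (0.202) to 0.60 (0.0656). Among AT2 mutants, B was the highest for Ctse, Vsig1, Gkn3, Tff1, Tff2 and Hnf4a.

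**Figure D3:**
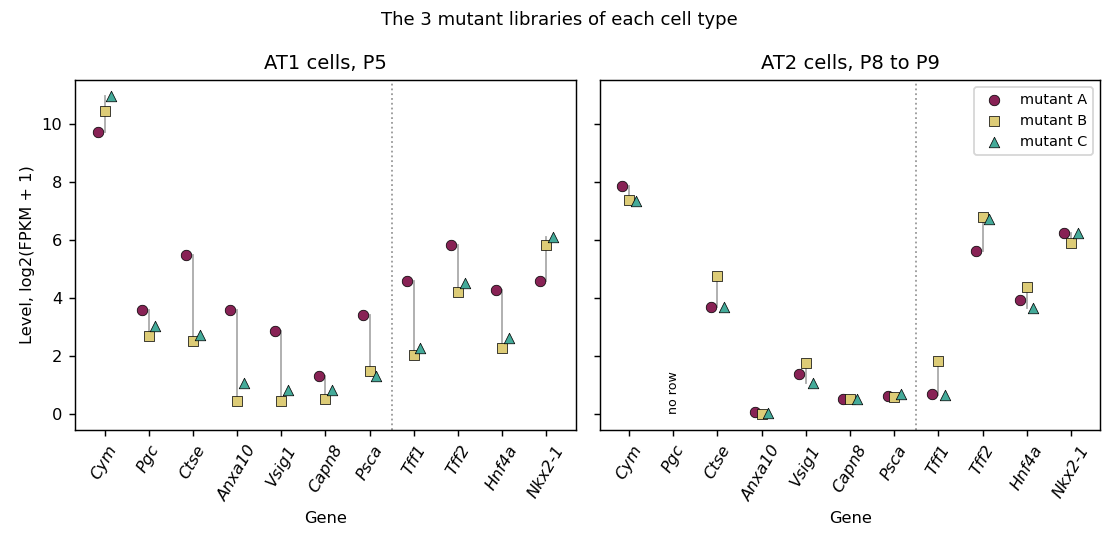
Level in each mutant library, as log2(FPKM + 1), for the members above 0 in mutant AT1 cells other than Gkn3 (left of the dotted line in each panel) and for Tff1, Tff2, Hnf4a and Nkx2-1. In AT1 cells mutant A (circles) lies above B and C for every gene shown except Cym and Nkx2-1, where it lies below them.

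In whole lung all 10 members were at least 2-fold higher in the mutant on the FPKM + 1 scale, beside 6.88% of 23793 loci, with a median log2 ratio of 3.43 against 0 over all loci. With 1 library per group this has no replicate check, and in whole tissue a change in the number of cells of a type and a change in RNA per cell cannot be told apart. Ratios were largest for Psca (log2 7.27, the 8th largest of all loci), Ctse (6.26, the 19th), Anxa10 (5.97, the 23rd) and Vsig1 (5.54, the 32nd). Gkn1 had the smallest, at 1.14. Except for Gkn1, all members exceeded 4-fold.

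Except for Cym, the members were highest in the mutant lung. Their level there was 3.0 times that of the highest AT1 mutant for Ctse, 4.83 times for Capn8, 5.89 times for Anxa10, 9.47 times for Vsig1, 16.1 times for Psca, 24.1 times for Gkn3 and 27.7 times for Pgc. Cym was the reverse, at 847 FPKM or more in each AT1 mutant against 7.34 in mutant lung. Lung was taken at P14 and AT1 cells at P5, so age and tissue cannot be told apart. The values also lie in separate blocks, so these ratios are descriptive.

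**Figure D4:**
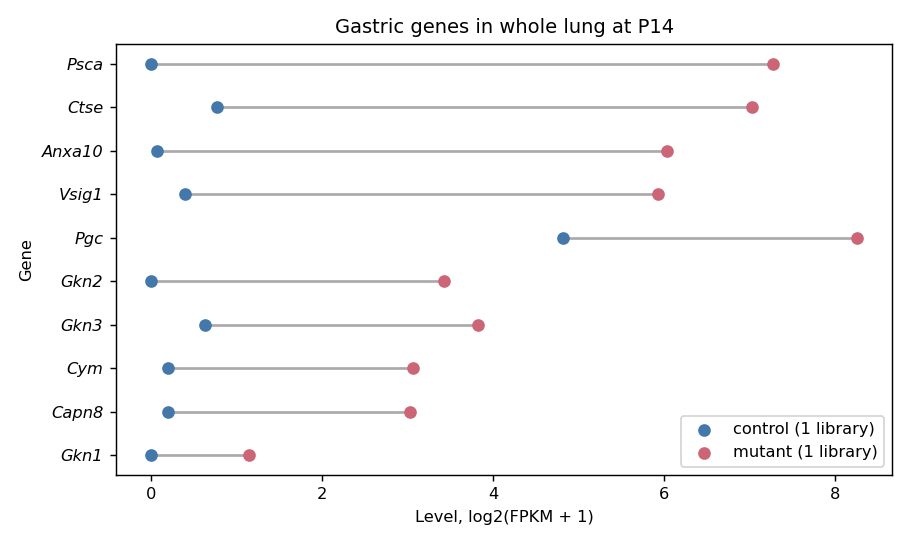
Level in the control (blue) and mutant (red) lung library at P14, as log2(FPKM + 1), with genes ordered by the size of the ratio. Every gene lies to the right in the mutant, from Gkn1 at 1.20 FPKM to Pgc at 304 FPKM.

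Other genes of stomach cells were followed in lists. Of 12 pit and neck genes, 4 of 6 tested rose in AT1 cells (Tff1, Tff2, Fut2 and Muc1) and 3 of 5 in AT2 cells (Tff2, Fut2 and Agr2), and Cldn18 fell in both. All of those that rose except Muc1 entered the test through mutant libraries alone. With no filter, 4 of 11 were called higher and 1 lower in AT1 cells, and 3 of 10 higher and 1 lower in AT2 cells. Of all loci, 11.6% in AT1 and 32.4% in AT2 cells were called higher with the filter, and 5.72 and 15.1% without it. Tff2, a trefoil peptide that protects mucus, rose by 4.54 ± 0.42 in AT1 (limma adjusted p = 0.00193) and 5.60 ± 0.31 in AT2 cells (adjusted p = 2.16e-05), to means of 31.7 and 87.5 FPKM. In lung 9 of the 12 were past 2-fold upwards, beside 6.88% of all loci. There Tff1 went from 0.125 to 817 FPKM, Sult1c2 from 0 to 107 and the pit-cell mucin gene Muc5ac from 0.267 to 3.63.

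Of 11 chief and parietal cell genes, 1 of 5 tested rose in each cell type (Kcnj15, a potassium channel), and Slc26a9, a chloride transporter, and Bhlha15, a transcription factor of secretory cells, fell in AT2 cells. Of all loci, 11.6 and 32.4% were called higher in AT1 and AT2 cells. In lung 4 of the 11 were past 2-fold upwards, beside 6.88% of all loci, and 2 downwards. The parietal cell proton pump gene Atp4b was listed at 0 in all AT1 and AT2 libraries and reached 0.0544 FPKM in mutant lung. Atp4a, the other gene of this pump, went from 0.0687 to 1.98 FPKM in lung, past 2-fold. It was at most 0.0209 FPKM in AT1 controls, 0.117 to 0.371 in AT1 mutants and at most 0.0601 in AT2 libraries. Pga5, another pepsinogen gene, was at most 0.0472 FPKM in AT1 libraries and went from 0 to 6.62 FPKM in lung. Gast and Sst, which encode the hormones gastrin and somatostatin, were listed at 0 in all 14 libraries, and no endocrine gene was past 2-fold in lung. In AT2 cells the histamine-synthesis gene Hdc fell by 3.89 ± 0.33 on the log2 scale (adjusted p = 0.000106).

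Among 21 transcription factor genes of stomach, foregut or gut, 5 of 11 tested rose in AT1 cells (Foxq1, Hnf4a, Spdef, Foxa3 and Foxa1) and 5 of 8 in AT2 cells (Hnf4a, Foxa3, Spdef, Foxq1 and Klf5). Klf4 fell in both and Foxa2 in AT2 cells. Only 18 of the 21 had a row for AT2 cells. Foxa1, Gata6 and Cdx1 had none, so whether Foxa1 changed there is unknown. Hnf4a and Foxa3 in both cell types, and Spdef in AT1 cells, entered the test through mutant libraries alone. With no filter, 5 of 20 were called higher and 1 lower in AT1 cells, and 5 of 17 higher and 1 lower in AT2 cells. The shares of all loci called higher were 11.6 and 32.4% with the filter, and 5.72 and 15.1% without it. Hnf4a, which encodes a nuclear receptor of gut, liver and stomach, went from at most 0.0330 FPKM in AT1 controls to 3.86 to 18.4 in mutants (log2 3.04 ± 0.46, limma adjusted p = 0.00803), and from at most 0.186 to 11.6 to 19.6 in AT2 cells (3.78 ± 0.18, adjusted p = 1.19e-05). In lung 8 of 21 were past 2-fold upwards, beside 6.88% of all loci, Hnf4a going from 0.0271 to 36.8 FPKM. Pdx1, a factor of the antrum, duodenum and pancreas, was listed at 0 in every library.

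Relatives of the members by protein family did not move as a block. Of 4 other aspartic protease genes tested in AT1 cells none was called by limma, the smallest unadjusted p being 0.0291 for Bace2 and the next 0.0541 for Bace1, and of 3 in AT2 cells Napsa, napsin A of surfactant processing, fell by 3.80 ± 0.26 (limma adjusted p = 4.71e-05). Among other BRICHOS genes, Itm2c fell in AT1 cells and Sftpc and Itm2a in AT2 cells, and none of 5 rose. Capn5 was the 1 of 9 calpain genes that rose in AT1 cells (2.37 ± 0.27, adjusted p = 0.00365), and with Capn6 and Capn10 it made 3 of 4 in AT2 cells. Of the annexins, 2 of 10 rose in AT1 cells (Anxa8 by 2.28 ± 0.46, adjusted p = 0.0178, and Anxa11) and 7 of 8 in AT2 cells, where Anxa9 fell. In lung Anxa13 went from 0.0356 to 29.6 FPKM.

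Of the Ly6 family, to which Psca belongs, 4 of 12 rose in AT1 cells, led by Ly6g6c (2.85 ± 0.48, limma adjusted p = 0.0105), and 8 of 10 rose and 2 fell in AT2 cells. Of the CTX family of junction proteins, to which Vsig1 belongs, Vsig2 rose and Esam fell in both cell types. The counts of all these protein families stand beside 11.6 and 32.4% of all loci called higher in AT1 and AT2 cells.

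**Figure D5:**
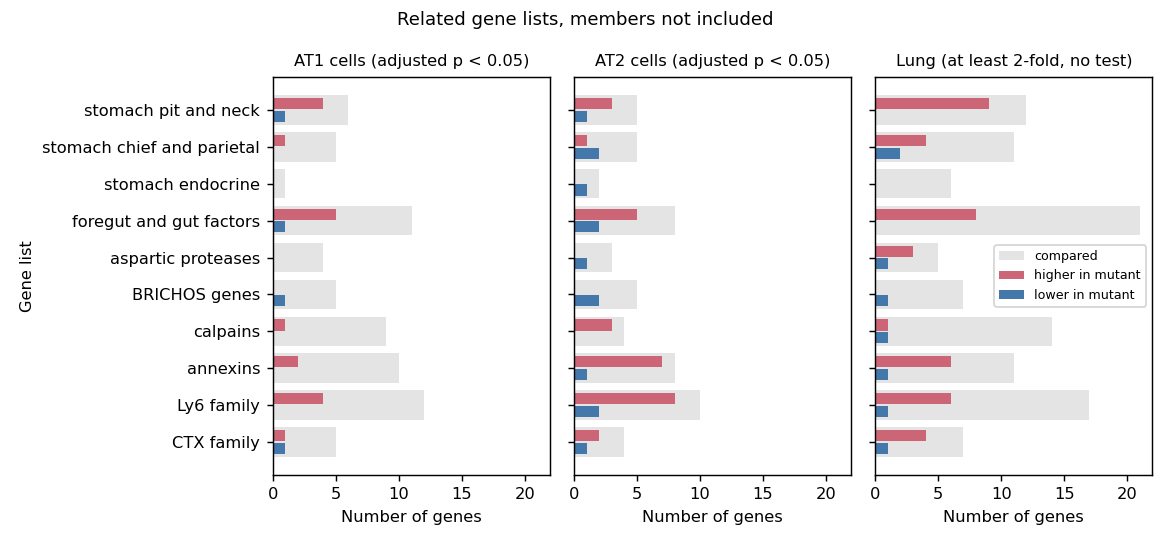
Number of genes of each related list that were compared (grey), higher (red) and lower (blue) in mutant AT1 cells, AT2 cells and lung, called by limma in the cells and past 2-fold without a test in lung. Pit and neck genes include 4 higher of 6 in AT1 cells and 9 of 12 in lung, and endocrine genes include none higher.

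The 5 genes below resembled Cym most over the 12 AT1 and AT2 libraries, by the root mean square difference of log2 levels centred within each table, among 10335 genes with a median difference of 3.85. They were Sprr1a (1.04), a cornified envelope protein gene, Clu (1.68), which encodes the secreted chaperone clusterin, Tff2 (1.86), Gpx2 (1.99), a glutathione peroxidase gene of gut epithelium, and Krt4 (2.08), a keratin gene of stratified epithelia. Sprr1a averaged 1.39 FPKM in AT1 controls and 1206 in AT1 mutants, and 6.38 and 214 in AT2 cells. All 5 rose in both cell types, which follows from their being picked for likeness to Cym in these libraries. The lung libraries had no part in the choice. Mutant lung held 7.34 FPKM of Cym, against 414 of Sprr1a, 7803 of Clu, 1373 of Tff2, 33.4 of Gpx2 and 21.5 of Krt4.

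Markers of other cells also differed between arms, and their part in the results above was not tested. AT1 controls carried their own markers (8 genes summing to 8094 to 9896 FPKM), which fell to 1143 to 2426 in mutants. AT2 markers were also present in the AT1 libraries, at 8679 to 19040 FPKM in controls and 2983 to 11775 in mutants, and in AT2 cells the 7 listed fell from 82649 to 111186 down to 1786 to 3513. Airway markers summed to 884 to 4731 FPKM in AT1 controls and 129 to 1197 in mutants, and to 21759 and 21325 in control and mutant lung. Scgb1a1 made 20542 and 19852 FPKM of the lung sums. Of the 7 airway genes, 1 was past 2-fold higher in mutant lung (Scgb3a1, 34.9 to 432 FPKM) and 1 lower (Cyp2f2, 425 to 176). Endothelial markers summed lower in mutants in AT1 (200.2 to 236 against 284 to 630.0 FPKM), AT2 (33.9 to 65.3 against 98.2 to 160) and lung libraries (699 against 1911). Leukocyte markers did so in AT1 (147 to 270 against 396 to 934) and AT2 libraries (109 to 321 against 1888 to 3429). By gene, limma called 1 of 7 endothelial and 2 of 7 leukocyte genes lower in AT1 cells, and 0 of either with no filter. In AT2 cells it called 7 of 7 and 5 of 6, and 7 and 3 of 7 with no filter. In lung the leukocyte list summed to 586 FPKM against 1881, of which Lyz1 made 456 and 1788, and of its 8 genes 3 were past 2-fold lower (Cd3e, Cd79a and Lyz1) and 3 higher (Cd68, Itgam and Laptm5). The mesothelial list was higher in mutant AT1 libraries (1514 to 2278 against 265 to 1189 FPKM), with Msln its largest member. Of its 5 genes, Upk1b (adjusted p = 0.00282) and Msln (adjusted p = 0.0474) rose by limma there, and Upk3b rose in AT2 cells (log2 1.54, adjusted p = 0.000779). In lung the list summed to 897 FPKM in the mutant against 198, with Msln past 2-fold higher (872 against 97.9) and Lrrn4, Upk1b and Upk3b past 2-fold lower. Squamous markers rose in sum from at most 3.58 to between 18.4 and 39.7 FPKM in AT1 libraries, mostly Krt4, while Krt5 did not exceed 2.00 and Krt6a 0.0214 FPKM there.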

How the data were processed

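RNA was measured in 14 libraries, grouped by the sample labels. Per the labels' protocols, poly(A) RNA was made into libraries with a NEBNext Ultra kit and sequenced as pairs of 76-nucleotide reads. Reads were processed against mm10 (GRCm38) with Bowtie2 2.2.3, TopHat2 2.0.14 and Cufflinks 2.2.1, and with Cuffdiff for AT1 and lung or Cuffnorm for AT2 libraries, per the submitters' processing notes. The annotation and any use of strand are nowhere stated in the sources used here. The values deposited by the authors are FPKM, 1 column per library. The log2 fold changes in the authors' deposited table were only checked against those FPKM.

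Values were transformed as log2(FPKM + 1), which understates changes of low genes. Loci with at least 1 FPKM in 3 of the fitted libraries were tested with limma 3.58.1 (mean-dependent prior variance) in R 4.3.3 with Benjamini-Hochberg adjustment over all loci, after a test on simulated data. AT1 and AT2 cells were fitted separately, and their difference as an interaction. Lung (1 library per arm) had no test. Alternatives covered the pseudocount, filter, scaling, prior, replicate block, age and each library left out; those without filter plus another change, and the stricter lung thresholds, were chosen after seeing the data.

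Same-letter AT1 libraries deviated together from their group means (r = 0.24, 0.36 and 0.48 for A, B and C over 12612 loci), so the letters were taken to pair them, from the data and not the labels. AT2 letters did not (0.11, -0.12 and 0.13). The main fits used no block and so left this pairing out. With the block, limma adjusted p in AT1 cells was 0.0015 for Cym, 0.0277 for Ctse and 0.0290 for Psca. No library pair shared more than a trace of identical values. Coordinates are from GENCODE vM21 and promoters from RefSeq. Tables and plots were made with NumPy 2.4.6, pandas 2.3.3, Python 3.11.15 and matplotlib 3.10.9.

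The members and lists were chosen with earlier results of these data known. The text names every member, Nkx2-1 and the 5 genes nearest to Cym. The plan was to name up to 3 called genes per list and comparison with the largest changes, and listed genes at 0 throughout. Not all of these are named. Further list members and mutant-by-mutant values were named after being seen.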

Additional observations from a re-analysis of the deposited data

Results flagged for a closer look

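The change of Cym was called different between the cell types: in AT2 cells minus that in AT1 cells it was -3.0 on the log2(FPKM + 1) scale (SE 0.76, limma interaction over 12 libraries, adjusted p = 0.0334). With 1 change made at a time, the call held under 9 alternatives and was lost under 11 (adjusted p = 0.0529 to 0.0891). The difference was below 0 in all of these. With no filter and a further change, the call held only with the replicate block or without AT1 control C. It was lost with no filter and any other single library left out. Age and cross cannot be told apart from cell type here. Cym was higher in 3 of 3 mutant libraries than in every control in both cell types.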

How the results depend on the processing

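Cym and Ctse kept their rise in AT2 cells, and Cym its rise in AT1 cells, under every alternative run. With no filter, 1 member was called higher in AT1 cells (Cym, in place of 3) and 5 in AT2 cells (in place of 3), and 0 differed between cell types; more loci of low level were then tested. Rescaling to equal summed FPKM made 2 members differ between cell types (Cym and Psca) and turned the difference of Ctse to 0.44 (adjusted p = 0.630). That scaling moved the median log2 change of all AT2 loci from 0.09 to 0.61 and the AT2 calls from 3767 higher and 2589 lower to 6410 and 927; an equal upper quartile gave 2420 and 3519. In AT1 cells equal sums gave 686 and 656 in place of 1462 and 785. With a pseudocount of 0.1, Psca (adjusted p = 0.0341) differed between cell types in place of Cym. An equal upper quartile made 1 member lower in AT2 cells (Gkn3); the causes were not tested.

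With the replicate block, 1 member was lower in AT2 cells (Gkn3, adjusted p = 0.0276), where the letters were not shown to pair the libraries. In AT1 cells the block changed no member call of the filtered fit, and total calls went to 1907 higher and 1359 lower.

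Leaving out 1 library at a time left 1 to 3 members called higher in AT1 cells, also with no filter, 2 to 3 higher in AT2 cells, 0 or 1 lower in AT2 cells (1 without mutant B) and 0 or 1 differing between cell types. Removing any AT1 mutant took Ctse and Psca below the filter. With such removals, Pgc in AT1 cells ranged from -0.14 to 0.42. Without the filter, Gkn3 in AT1 cells ranged from -0.021 to 0.29, and Gkn2, in AT2 cells and as the difference between cell types, from -0.052 to 0.029. The difference between cell types ranged from -0.57 to 0.90 for Ctse and from -1.02 to 0.19 for Vsig1. None of these passed the test. At levels below 1 FPKM the unknown depth limits what can be said of Capn8, Psca and Vsig1.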

Other observations

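For AT2 cells, the log2 fold changes in the authors' deposited table matched those recomputed from the FPKM beside them, within 0.06, for 32608 of 32608 loci. For AT1 cells they matched for 2651 of 23793 loci (11.1%), and all 5476 loci listed at 0 FPKM in all 6 AT1 libraries carried a log2 value other than 0. That AT1 column was not used.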
